A study of Mus musculus with 6 samples.

Results

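The interferon genes described here are a list of 43: the subunits of the interferon receptors, the factors that carry their signal, and genes that interferons switch on. They were found by gene name in the table of all genes. Of the 43, 42 had a row among 24205 genes, each name once, and Ifit3b was not analysed here. The cells were granulocyte-monocyte progenitors of the bone marrow, the precursors of neutrophils and monocytes, sorted from C57BL/6 mice and profiled by bulk RNA sequencing. One group of 3 libraries came from sham-operated mice and the other group of 3 from mice with hindlimb ischemia, in which blood flow to a hind leg is cut off. The labels give no age, sex, time after surgery or sorting gate, and do not say that each library is 1 animal, so the p-values cover the spread between the sequenced libraries, which may be technical.

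Interferons are secreted proteins, and those of type I are released by cells on sensing foreign or misplaced nucleic acid. Type I interferons bind a receptor made of IFNAR1 and IFNAR2, and interferon gamma binds one made of IFNGR1 and IFNGR2. The type I receptor activates a factor complex that holds STAT2 and IRF9 and binds the interferon-stimulated response element (ISRE) in promoters, while interferon gamma acts through the gamma-activated site (GAS). In bone marrow, interferons are known to act on stem and progenitor cells, and resting cells keep a low tonic level of many of the target genes.

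The promoters show which members carry the ISRE letters. RefSeq promoters (GRCm38.p6, 250 bases before to 50 after each start) were found for 32 of the 43 genes. The ISRE core searched was GAAA, then 2 bases of any kind, then GAAA, on both strands with overlapping matches kept, and it was present for 18 of the 32 (56.2%), against 1079 of all 27025 genes with a promoter (3.99%). When CT had to follow the second GAAA, which makes a subset of the same matches, the counts were 10 of 32 (31.2%) and 82 of 27025 (0.303%). The GAS core, TTC, then 3 bases of any kind, then GAA, a palindrome in its fixed letters, was present for 7 of 32 (21.9%) and for 2582 of 27025 (9.55%). The 150 bases just before the start are printed for 6 members, with ISRE core matches on either strand in capitals. Bst2, Gbp3 and Oas1a are shown as members of high level, Isg15 and Ifit1 as well-known targets of low level, and Ifnar1 as a receptor gene without a match.
Bst2 (chr8:71537473-71537622, minus strand): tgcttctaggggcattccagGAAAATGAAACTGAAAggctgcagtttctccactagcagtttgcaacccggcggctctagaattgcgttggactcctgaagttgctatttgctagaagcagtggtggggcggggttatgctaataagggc
Gbp3 (chr3:142559894-142560043, plus strand): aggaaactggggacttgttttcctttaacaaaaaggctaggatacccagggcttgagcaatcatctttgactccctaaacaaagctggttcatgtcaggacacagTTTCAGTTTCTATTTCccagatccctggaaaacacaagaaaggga
Oas1a (chr5:120907526-120907675, minus strand): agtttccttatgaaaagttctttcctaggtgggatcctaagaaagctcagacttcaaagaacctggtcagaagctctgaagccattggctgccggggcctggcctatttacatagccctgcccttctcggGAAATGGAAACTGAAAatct
Isg15 (chr4:156200819-156200968, minus strand): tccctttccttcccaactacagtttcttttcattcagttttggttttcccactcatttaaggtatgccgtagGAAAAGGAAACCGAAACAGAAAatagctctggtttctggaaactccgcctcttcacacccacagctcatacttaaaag
Ifit1 (chr19:34640739-34640888, plus strand): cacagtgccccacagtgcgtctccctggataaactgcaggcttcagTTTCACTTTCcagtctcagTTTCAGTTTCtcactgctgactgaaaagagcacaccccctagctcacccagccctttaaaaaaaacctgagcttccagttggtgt
Ifnar1 (chr16:91485065-91485214, plus strand): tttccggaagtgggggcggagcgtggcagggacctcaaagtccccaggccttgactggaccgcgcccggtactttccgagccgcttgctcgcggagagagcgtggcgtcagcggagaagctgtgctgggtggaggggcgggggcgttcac
Isg15 has 3 overlapping matches in its stretch, Bst2, Gbp3 and Oas1a have 2 overlapping ones, and Ifit1 has 2 separate ones. None of the 4 receptor promoters had the ISRE core. Among the measured members with the core, the sham mean ran from 0.227 TPM for Ifit3 to 129 TPM for Bst2. In Ddx58, Eif2ak2 and Ifih1 the match lay after the start. TPM divides the reads of a gene by its length and then by the sum over the library, so levels can be compared between genes.

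Levels in the sorted progenitors spanned a wide range. The highest of the 42 mean levels was 273 TPM, for Ifngr1, and the lowest 0.215 TPM, for Ifit3. For 22 members the reads behind the TPM values could be recovered, and they ran from 0 for Ifit3 in 1 library to 19742 for Ifngr1. Of the 42 genes, 34 reached 1 TPM in at least 3 libraries and were tested, and the other 8 did not. The sorted population had the markers of its label in every library: Mpo, the myeloperoxidase of primary granules, ran from 8448 to 12818 TPM, and Elane, the neutrophil elastase gene, from 9607 to 12367 TPM.

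**Figure D1:**
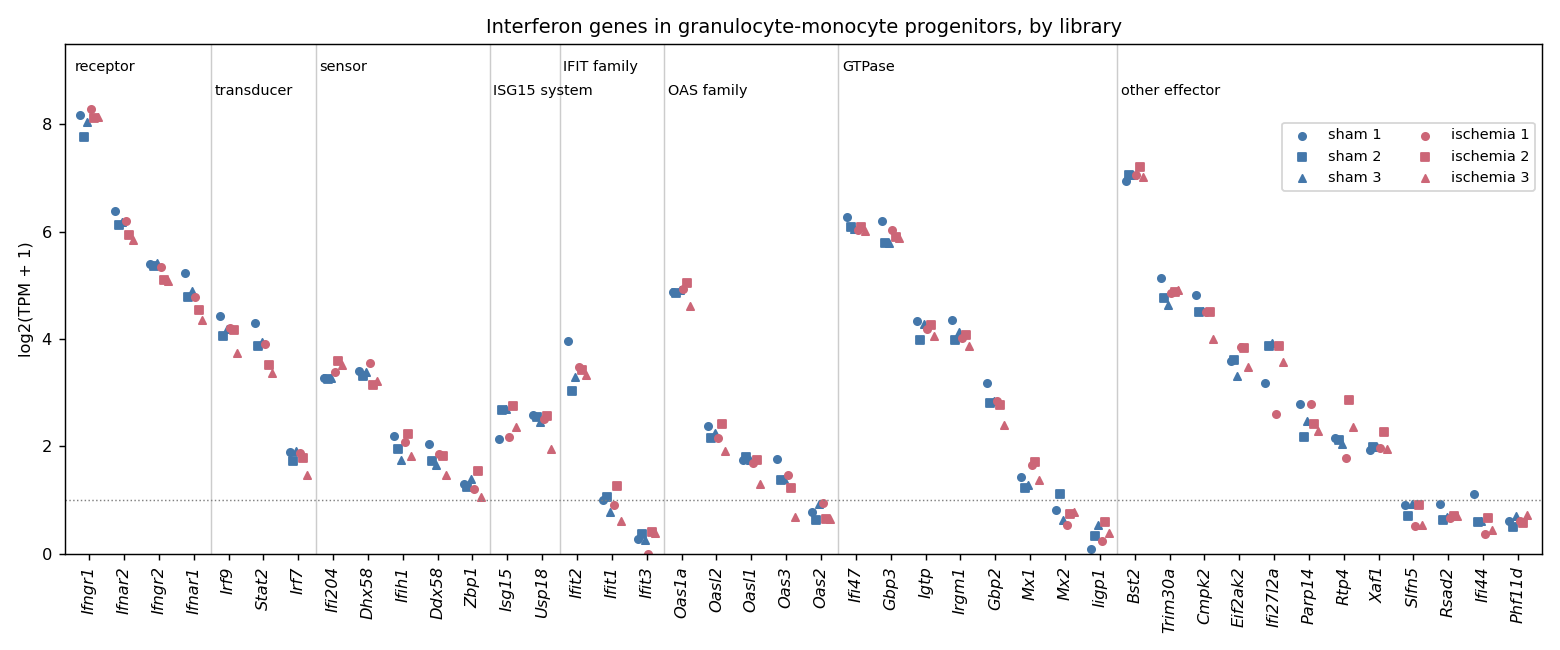
Level of each of the 42 interferon genes as log2(TPM + 1), grouped by role, with 1 point per library (blue sham, red hindlimb ischemia; circle, square and triangle for replicates 1, 2 and 3). The dotted line marks 1 TPM, and the receptor gene Ifngr1 and the effector genes Bst2, Ifi47 and Gbp3 stand far above it while 8 genes lie mostly below it.

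No interferon gene passed the adjusted test for a difference between hindlimb ischemia and sham. Limma-trend on log2(TPM + 1) gave 0 of 34 members past an adjusted p of 0.05, and of all 13787 genes tested 0% passed. At an unadjusted p under 0.05 there were 2 members, Ifnar1 and Stat2, both lower (5.88%), beside 3.89% of all genes in either direction, 0.943% higher and 2.95% lower. Neither was called without sham replicate 1, sham replicate 3, ischemia replicate 2 or ischemia replicate 3. The median log2 fold change of the 34 members was -0.07, and that of all genes tested was -0.09. Of the 34, 23 had a negative value (67.6%), as did 69.1% of all genes. The groups did not overlap for 4 members, 1 higher and 3 lower, or 11.8% against 8.33% of all genes, 1.65% higher and 6.68% lower. These shares, on the TPM scale, lie near those of all genes.

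How the libraries are scaled moved the smaller counts. Dividing by median-of-ratios size factors moved the median of all genes from -0.09 to 0.02, and the median of the members from -0.07 to 0.02. The members at an unadjusted p under 0.05 were then 4 higher (Ifngr1, Eif2ak2, Ifi204 and Mx1) and 2 lower (Ifnar1 and Stat2). These were 6 of the 33 tested (18.2%), beside 5.07% of all genes. Over all genes the split of these calls moved from 130 higher and 407 lower to 332 higher and 366 lower. The smallest adjusted p of a member was 0.874 before and 0.854 after. With size factors 14 of the 33 members had a negative log2 fold change, and with quantile normalization 16 of 34. On the TPM scale 23 of 34 had one. With quantile normalization the median of all genes was -0.01. Counts of lower and higher means therefore moved with the scaling, and other scalings are given beside several of them. The receptors (3 of 4 lower), the transcription factors (3 of 3 lower) and the group of other effectors (6 of 8 higher) had the same split under all 3 scalings.

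**Figure D2:**
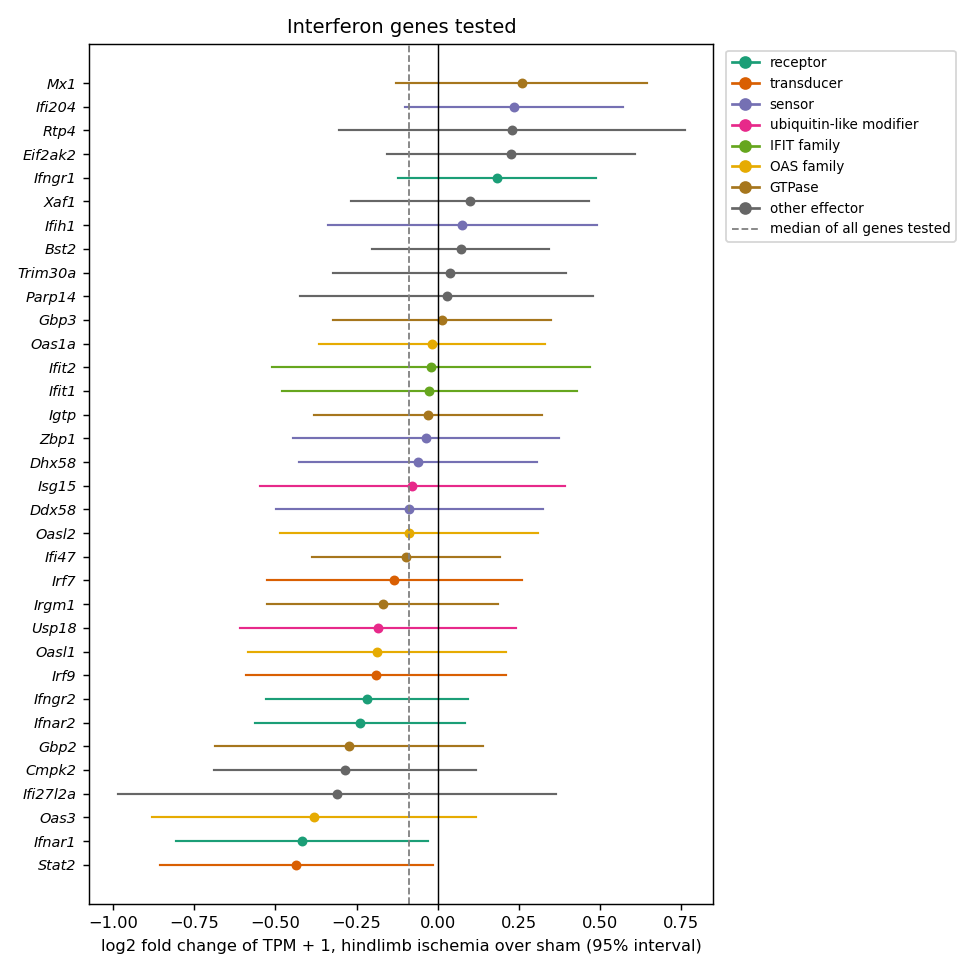
Log2 fold change on the TPM + 1 scale, hindlimb ischemia over sham, with its 95% interval, for the 34 members tested, coloured by role and ordered by value. The dashed line is the median of all 13787 genes tested, -0.09, and every interval except those of Ifnar1 and Stat2 crosses 0.

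The receptor genes were among the better expressed members, in the order Ifngr1, Ifnar2, Ifngr2 and Ifnar1. Ifngr1, the ligand-binding subunit for interferon gamma (ENSMUSG00000020009, chromosome 10, 19591949 to 19610229), had 288, 218 and 263 TPM in sham replicates 1 to 3 and 313, 276 and 280 TPM in ischemia replicates 1 to 3. Sham replicate 1 lay within the ischemia range, so the groups overlapped. Its log2 fold change was 0.18 (SE 0.14; 95% interval -0.12 to 0.49; adjusted p 0.874). Ifngr2, the accessory subunit that brings in JAK2 (ENSMUSG00000022965, chromosome 16, 91547072 to 91565623), had 41.4, 40.0 and 41.9 TPM in sham and 39.6, 33.3 and 33.0 TPM after ischemia. All 3 ischemia libraries lay below all sham libraries, the first of them by less than 1 TPM. Its log2 fold change was -0.22 (SE 0.14; interval -0.53 to 0.09; adjusted p 0.874).

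Both subunits of the type I receptor had lower means after ischemia. Ifnar1, the signalling subunit that binds TYK2 (ENSMUSG00000022967, chromosome 16, 91485238 to 91507441), had 36.8, 26.6 and 28.7 TPM in sham and 26.5, 22.2 and 19.4 TPM after ischemia. The groups did not overlap, though the highest ischemia value, 26.5, was close to the lowest sham value, 26.6. Its log2 fold change was -0.42 (SE 0.18; interval -0.81 to -0.03), with an unadjusted p of 0.0375 and an adjusted p of 0.874. Ifnar2, the high-affinity binding subunit (ENSMUSG00000022971, chromosome 16, 91372783 to 91405589), had 82.7, 68.3 and 72.0 TPM in sham and 72.4, 60.3 and 56.3 TPM after ischemia. The first ischemia library lay within the sham range, and the log2 fold change was -0.24 (SE 0.15; interval -0.56 to 0.08; adjusted p 0.874). Within every library the receptor genes kept the order Ifngr1, Ifnar2, Ifngr2 and Ifnar1. Across the libraries the ranges of Ifngr2 and Ifnar1 overlapped, while those of Ifngr1 and Ifnar2 and of Ifnar2 and Ifngr2 did not.

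Ratios of TPM within a library are not altered by size factors, though quantile normalization can alter them. Those given here were chosen after the values were seen and carry no test. The ratio of Ifngr1 to Ifngr2 was 6.96, 5.45 and 6.28 in sham and 7.89, 8.29 and 8.47 after ischemia. The 3 ischemia ratios all lay above the sham ratios, with means of 8.22 ± 0.298 and 6.23 ± 0.758 (SD, n = 3 each). The ratio of Ifnar2 to Ifnar1 was 2.25, 2.57 and 2.51 in sham and 2.73, 2.71 and 2.90 after ischemia, again without overlap.

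**Figure D3:**
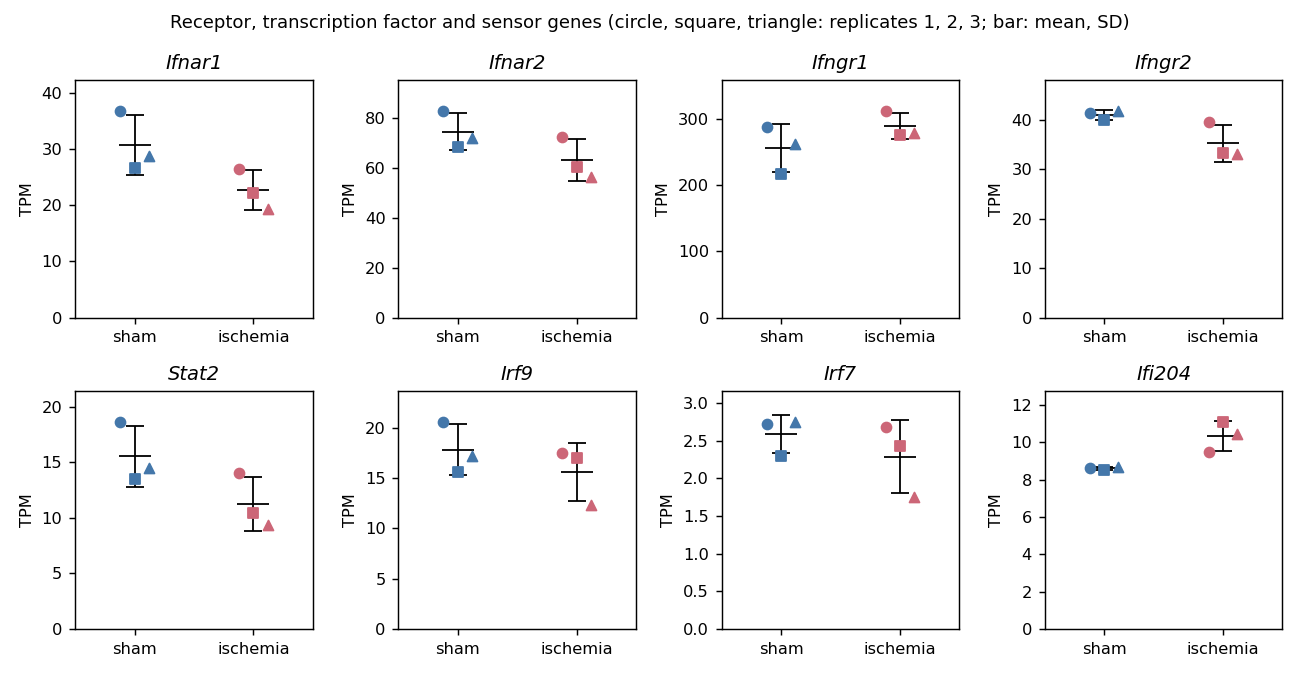
TPM in each library for the 4 receptor genes, the transcription factor genes Stat2, Irf9 and Irf7, and the sensor gene Ifi204; horizontal bars give the mean and SD of 3 libraries, and each axis starts at 0. Ifnar1, Ifngr2 and Ifi204 are the genes shown whose groups do not overlap, the first pair lower and the last higher after ischemia.

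The transcription factor genes all had lower means, by amounts that did not pass the adjusted test. Stat2, the STAT that only the type I and type III receptors use (ENSMUSG00000040033, chromosome 10, 128270559 to 128292849), had 18.6, 13.5 and 14.4 TPM in sham and 14.0, 10.4 and 9.37 TPM after ischemia. The first ischemia library lay inside the sham range. Its log2 fold change was -0.44 (SE 0.19; interval -0.86 to -0.02), with an unadjusted p of 0.0435 and an adjusted p of 0.874. Irf9, the DNA-binding partner of STAT2 (ENSMUSG00000002325, chromosome 14, 55603571 to 55610030), had 20.6, 15.6 and 17.3 TPM in sham and 17.5, 17.0 and 12.3 TPM after ischemia. Here only the third ischemia library lay below sham, and the log2 fold change was -0.19 (SE 0.18). Irf7, the factor that amplifies type I interferon production (ENSMUSG00000025498, chromosome 7, 141262706 to 141266481), had 2.72, 2.29 and 2.75 TPM in sham and 2.69, 2.43 and 1.75 TPM after ischemia. The log2 fold change was -0.13 (SE 0.18), and again 1 ischemia library lay below sham.

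Ifnar1 and Stat2 are among the longer members. Their exon lengths in GENCODE M21 are 5940 and 5926 bases. For neither gene could the reads be recovered with that length, so the length behind its TPM values may differ. The 4462 tested genes of at least 5000 bases had a median log2 fold change of -0.13. For the 2654 genes under 1000 bases the median was 0.06. The part of length in the values of Ifnar1 and Stat2 was not tested.

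The 5 sensors of viral nucleic acid lay on both sides of 0, with 3 lower means and a median log2 fold change of -0.04. With size factors or quantile normalization 1 of the 5 was lower, and 0 passed the adjusted test under any of these scalings. Ifi204, a DNA-binding sensor of the HIN-200 family (ENSMUSG00000073489, chromosome 1, 173747293 to 173766943), had 8.64, 8.51 and 8.68 TPM in sham and 9.47, 11.1 and 10.4 TPM after ischemia. It was the 1 member whose ischemia libraries all lay above sham. Its log2 fold change was 0.23 (SE 0.15; interval -0.10 to 0.57; adjusted p 0.874), and reads could be shared with closely related genes of its family. The RNA helicase genes Ddx58 (RIG-I), Ifih1 (MDA5) and Dhx58 (LGP2) had log2 fold changes of -0.09, 0.08 and -0.06. Zbp1, which senses Z-form nucleic acid and can start necroptosis, had 1.48 ± 0.133 TPM in sham and 1.44 ± 0.432 TPM after ischemia (SD, n = 3 each).

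The 2 genes of the ISG15 system, a ubiquitin-like protein and the protease that removes it from targets, had log2 fold changes of -0.08 for Isg15 and -0.18 for Usp18, and 1 of the 2 was positive with size factors or quantile normalization. Isg15 had 3.36, 5.40 and 5.48 TPM in sham and 3.50, 5.70 and 4.11 TPM after ischemia, from 43 to 87 reads. In each group replicate 1 was the lowest. Isg15 and Ifi27l2a, a small interferon-induced protein gene, have exon lengths of 756 and 463 bases, and Ifi27l2a was also lowest in replicate 1 of each group, with 8.05 TPM against 13.5 and 14.2 in sham and 5.08 TPM against 13.6 and 10.8 after ischemia. Over all 2654 genes under 1000 bases, the median deviation from the gene's mean, less that of the library, was -0.36 in sham replicate 1 and -0.12 in ischemia replicate 1 on the log2 scale, and between 0.02 and 0.22 in the other 4 libraries. The part of length in these low values was not tested.

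The OAS genes encode enzymes or relatives of enzymes that make the messenger activating RNase L. All 4 tested had negative log2 fold changes, from -0.02 for Oas1a to -0.38 for Oas3, while with size factors 2 of the 4 were negative and with quantile normalization 3. Oas1a was well expressed, with 28.4, 28.0 and 29.1 TPM in sham and 29.6, 32.1 and 23.4 TPM after ischemia, and its ischemia libraries lay on both sides of the sham range. Oas3 (ENSMUSG00000032661, chromosome 5, 120753098 to 120777661) had 2.40, 1.57 and 1.60 TPM in sham and 1.77, 1.33 and 0.602 TPM after ischemia. Its groups overlapped, and the log2 fold change had an SE of 0.23 and an adjusted p of 0.874. Oasl1 and Oasl2, the OAS-like genes, had -0.19 and -0.09.

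The IFIT genes, whose proteins bind foreign RNA ends, were low apart from Ifit2. Ifit2 had 14.6, 7.18 and 8.77 TPM in sham and 10.1, 9.65 and 9.06 TPM after ischemia, so the sham libraries enclosed all the ischemia values. Ifit1 had 1.00, 1.09 and 0.716 TPM in sham and 0.863, 1.38 and 0.532 TPM after ischemia, with a log2 fold change of -0.03. Ifit1 and Ifit2 had negative values on the TPM scale and positive ones with quantile normalization. Ifit3 rested on 6, 9 and 7 reads in sham and on 0, 11 and 13 reads after ischemia. A count of 0 allows up to 3 reads, or 0.101 TPM in that library, for counting error only, and reads of Ifit3 could be shared with the near-identical Ifit3b.

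The interferon-inducible GTPases act on viral capsids (MX), on vacuoles that hold pathogens (IRG) or on both vacuoles and bacteria (GBP). Of the 6 tested, 4 had lower and 2 higher means, with a median of -0.06, with size factors 2 were lower and 4 higher, and with quantile normalization 3 and 3. Ifi47, an IRG gene, had 65.7 to 76.8 TPM in sham and 63.9 to 66.9 TPM after ischemia, and Gbp3 had 54.3 to 72.9 and 58.1 to 64.8 TPM. In both genes the highest value was in sham replicate 1, and the ischemia range overlapped the sham range. Mx1 (ENSMUSG00000000386, chromosome 16, 97447035 to 97462907), a dynamin-like protein gene, had 1.69, 1.34 and 1.43 TPM in sham and 2.13, 2.25 and 1.57 TPM after ischemia. The third ischemia library lay within the sham range, and the log2 fold change was 0.26 (SE 0.18; interval -0.13 to 0.65; adjusted p 0.874). GENCODE M21 lists Mx2 as a polymorphic pseudogene, and MX protein was not measured. Igtp and Irgm1 had -0.03 and -0.17, and Gbp2 had -0.27.

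Of the other effectors tested, 6 of 8 had higher means, and their median of 0.05 lay 0.14 above that of all genes. Bst2, the tetherin that holds budding virus at the membrane (ENSMUSG00000046718, chromosome 8, 71534255 to 71537456), had 123, 133 and 132 TPM in sham and 131, 147 and 129 TPM after ischemia. The groups overlapped, and the log2 fold change was 0.07 (SE 0.12; interval -0.20 to 0.34). Eif2ak2, the kinase PKR that halts translation on double-stranded RNA (ENSMUSG00000024079, chromosome 17, 78852564 to 78882573), had 11.1, 11.1 and 8.92 TPM in sham and 13.5, 13.3 and 10.2 TPM after ischemia. The third ischemia library lay within the sham range, and the log2 fold change was 0.23 (SE 0.17; interval -0.16 to 0.61; adjusted p 0.874). Cmpk2, a mitochondrial nucleotide kinase gene, had 27.2, 21.8 and 22.0 TPM in sham and 21.6, 21.7 and 14.9 TPM after ischemia. These groups did not overlap, by less than 1 TPM for 2 of the ischemia libraries, and the log2 fold change was -0.29 (SE 0.18).

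Ifi27l2a had the log2 fold change farthest from 0 of the 8 effectors, -0.31, with an SE of 0.31 and groups that overlapped. Trim30a, a TRIM-family regulator, had 28.0 ± 5.39 TPM in sham and 28.5 ± 0.490 TPM after ischemia, and Parp14, an ADP-ribosyltransferase gene, had 4.62 ± 1.19 and 4.71 ± 1.06 TPM (SD, n = 3 each). Xaf1, a pro-apoptotic zinc finger gene, had a log2 fold change of 0.10 (SE 0.17). Besides Ifit3, the genes under the level for testing were Mx2, Oas2, Slfn5, Rsad2, Ifi44, Phf11d and Iigp1. Their means ran from 0.252 TPM for Iigp1 to 0.817 TPM for Mx2 in sham and from 0.329 TPM for Iigp1 to 0.683 TPM for Oas2 after ischemia. Rsad2, which encodes viperin, had 0.541 to 0.888 TPM in sham and 0.584 to 0.629 TPM after ischemia. Ifi44 was highest in sham replicate 1, with 1.16 TPM, against 0.288 to 0.583 TPM in the other 5 libraries. Iigp1, an IRG gene, ran from 0.0569 to 0.438 TPM in sham and from 0.169 to 0.508 TPM after ischemia, with wide overlap.

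The library in which a member stood highest depended on centring. On the TPM scale itself sham replicate 1 was highest for 15 of the 34 members, as it was for 51.4% of all genes, and ischemia replicate 2 for 11, where 7.65% of all genes were. After the gene's mean and the library's median over all genes were subtracted, 14 of the 34 members were highest in ischemia replicate 2 (41.2%), where 10.5% of all genes tested were. None of these 14 was a receptor gene. Rtp4, a chaperone gene for membrane receptors, had 2.43, 6.26 and 4.11 TPM in ischemia replicates 1 to 3 and 3.42, 3.36 and 3.10 TPM in sham. Xaf1 had 2.93, 3.83 and 2.87 TPM after ischemia against 2.83 to 2.96 in sham, and Zbp1 had 1.32, 1.92 and 1.09 against 1.37 to 1.63. In these genes the second ischemia library alone, or with the third for Rtp4, stood above sham. Ischemia replicate 3 was the lowest library for 12 of the 34 (35.3%), where 26.7% of all genes were lowest, with Usp18 at 2.87 TPM against 4.49 to 4.98 in sham. The median deviation of the members was 0.10 in ischemia replicate 2 and between -0.05 and 0.03 in the other 5 libraries, on the log2 scale. Without ischemia replicate 2 the median of the members relative to all genes was -0.07 in place of 0.02.

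**Figure D4:**
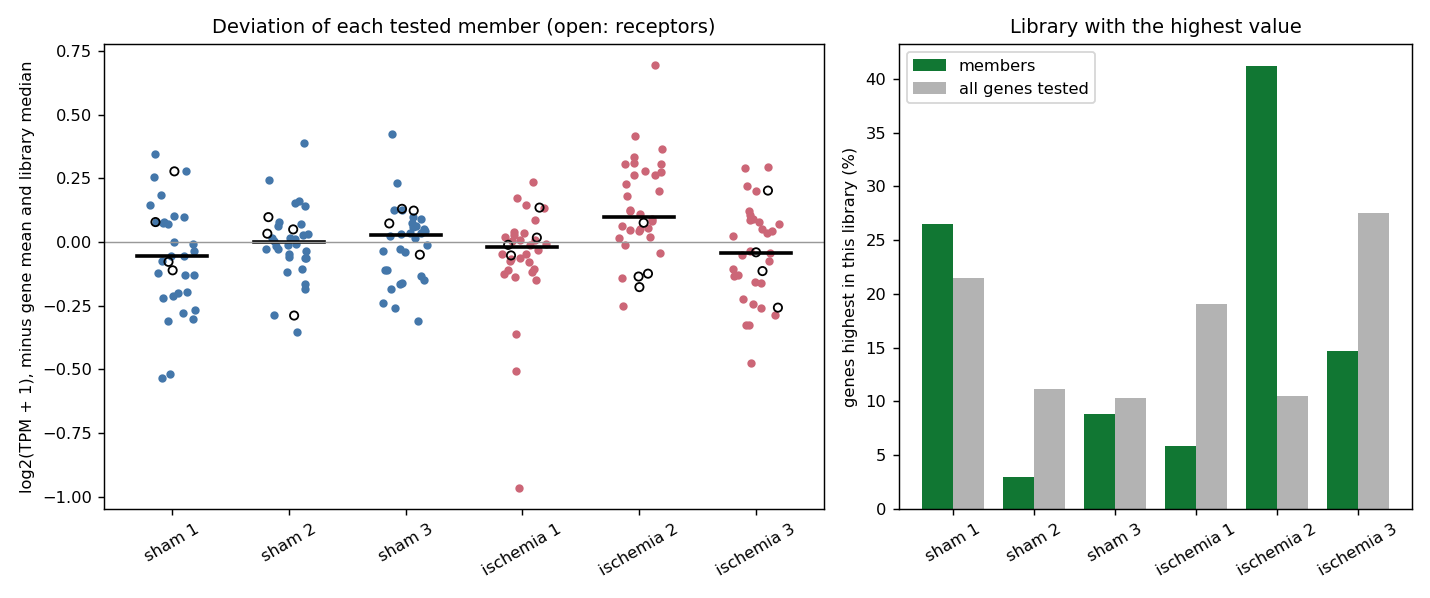
Left, deviation of each of the 34 tested members from its own mean on the log2(TPM + 1) scale, less the library's median over all genes, with black bars for medians and open circles for receptors. Right, percent of members (green) and of all genes tested (grey) whose value was highest in each library: 41.2% against 10.5% in ischemia replicate 2.

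Members were also set apart by their promoter letters, with no test of the difference. Among the members with a promoter, the 14 tested with the ISRE core had a median log2 fold change of -0.03, with 9 lower. The 12 tested without it had -0.16, with 10 lower. Of all genes tested 69.1% were lower, with a median of -0.09. With size factors the medians were 0.08 with 5 of 13 lower and -0.07 with 7 of 12 lower. Quantile normalization gave 0.05 with 5 of 14 lower and -0.07 with 9 of 12 lower. Medians of all genes were 0.02 and -0.01 under these scalings. The group without the core includes the 4 receptor genes. It also holds interferon-stimulated genes such as Ifit2, Oasl1 and Cmpk2, so the split does not part interferon targets from other genes. Of the 303 tested genes outside the 43 whose promoter held the core, 0 passed an adjusted p of 0.05 by limma-trend and 5 had an unadjusted p under 0.05 (1.65%), beside 3.89% of all genes, with a median of -0.10.

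Other genes of the pathway were read in the same fit. Of all genes tested in it, 69.1% had a negative log2 fold change, with a median of -0.09. With size factors that median was 0.02. Of the interferon genes themselves, 3 of 17 listed had rows, and each had a value above 0 in 1 library only: Ifna13 on 1 read and Ifnb1 at 0.0768 TPM, both in sham replicate 1, and Ifnk on 1 read in ischemia replicate 2. Of 15 tested signalling and feedback genes, 0 passed the adjusted test, and 13 had lower means (10 with size factors), with a median of -0.19. On the TPM scale 11 of the 15 lay below the median of all genes. In that list Irf1, a factor induced mainly by interferon gamma, had 34.0, 28.6 and 28.6 TPM in sham and 27.0, 21.1 and 19.2 TPM after ischemia, without overlap (log2 fold change -0.43, SE 0.17, adjusted p 0.874). Irf5 had -0.38, and the receptor kinase genes Jak1 and Tyk2 had -0.19 and -0.22. Of 12 tested genes of nucleic acid sensing, 0 passed and all 12 had lower means, with a median of -0.19. With size factors 10 of the 12 did, and on the TPM scale 10 lay below the median of all genes. Mavs, the mitochondrial adaptor of the RNA sensors, had 40.4, 27.3 and 31.8 TPM in sham and 26.9, 19.5 and 16.5 TPM after ischemia, without overlap (log2 fold change -0.65, SE 0.20, adjusted p 0.874). Ticam1, the adaptor of Toll-like receptor 3, had -0.43 (SE 0.18).

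Further interferon-stimulated genes did not pass either. Of 56 tested, 40 had lower means, with a median of -0.09, near the 69.1% and -0.09 of all genes. With size factors 27 of the 56 did, and on the TPM scale 28 lay below the median of all genes. In that list Ifitm6, an interferon-induced membrane protein gene, and Uba7, the activating enzyme for ISG15, had -0.41 and -0.40. Of 20 tested GTPase and antigen processing genes linked to interferon gamma, 16 had lower means, with a median of -0.12. With size factors 10 of 19 did, and on the TPM scale 13 of the 20 lay below the median of all genes. Among them H2-T23, a non-classical class I gene, had -0.27, and B2m, the class I light chain, had 2980 ± 48.0 TPM in sham and 3268 ± 590 TPM after ischemia (SD, n = 3 each). Ly6a, which encodes the interferon-inducible stem cell antigen Sca-1, had 31.2 ± 3.23 and 33.1 ± 1.98 TPM.

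Markers of other cell types were measured beside these genes. In bulk RNA, fewer cells of a type and less RNA per cell cannot be told apart. For the plasmacytoid dendritic cell, a strong source of type I interferon, 5 of 14 markers were tested, Ccr9, Ccdc162, Cadm1 and Pacsin1 stayed under 0.1 TPM in every library, and the summed level ran from 54.7 to 71.9 TPM in sham and 38.5 to 62.2 TPM after ischemia. Without Ptprs, which made up 69.7% of that sum, it ran from 17.3 to 19.2 TPM in sham and from 12.9 to 15.8 TPM after ischemia, without overlap. All 5 tested markers of that list had lower means, with a median log2 fold change of -0.14, where that of all genes was -0.09. With size factors 3 of 4 had lower means, with a median of -0.05, where that of all genes was 0.02. In that list Ly6d had 1.03, 2.44 and 3.53 TPM in sham and 0.170, 0.573 and 0.0584 TPM after ischemia. Its log2 fold change was -1.34 (SE 0.28, adjusted p 0.605 by limma-trend), the farthest from 0 of the 5. Monocyte and macrophage markers summed to 5624 to 6807 TPM in sham and 5895 to 6002 TPM after ischemia, and Ly6c2 made up 91.4% of that sum. Without it the sums were 496 to 587 and 479 to 523 TPM. Of the 11 markers tested, 8 had lower means, with a median log2 fold change of -0.03, where that of all genes was -0.09. With size factors 4 of the 11 had lower means and 7 higher ones. The macrophage gene C1qb was lower in all 3 ischemia libraries, at 1.78 ± 0.0622 TPM in sham and 0.897 ± 0.212 TPM after ischemia (SD, n = 3 each, adjusted p 0.874 by limma-trend). Lymphoid markers summed to 836 to 1032 and 864 to 916 TPM, with Ebf1, Pax5, Cd3e, Cd3g and Cd8a under 0.1 TPM throughout. Nkg7 made up 94.3% of that sum. Without it the sums were 52.0 to 57.8 TPM in sham and 46.5 to 47.9 TPM after ischemia, without overlap. Most of what remained was Cd79b, at 48.3 ± 1.78 TPM in sham and 44.0 ± 0.724 TPM after ischemia (SD, n = 3 each). The log2 fold change of Cd79b was -0.13 (SE 0.13), where the median of all genes was -0.09. In that list the B cell gene Cd79a had 2.11 ± 0.568 and 0.756 ± 0.258 TPM (SD, n = 3 each), without overlap, with an adjusted p of 0.816 by limma-trend. Erythroid markers summed to 155 to 187 TPM in sham and 30.7 to 96.1 TPM after ischemia, without overlap. Their part in the values of the interferon genes was not tested.

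In the authors' deposited table, with its sign turned to ischemia over sham, Ifnar1 had a log2 fold change of -0.27 and an adjusted p of 0.729, the smallest of the 41 members with one. Under an adjusted p of 0.05 were 12 of 15747 genes in the authors' deposited table, and 0 of these were members.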

How the data were processed

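The 6 libraries were 3 sham and 3 hindlimb ischemia, grouped by the labels. The authors deposited TPM per library, and, for each gene, a log2 fold change and an adjusted p-value of their own, per the file headers. Per the submitters' processing notes the build was mm10. The authors' aligner, counter, annotation, strand setting and test were not given in the sources used here. The deposited log2 values had a Spearman correlation of -0.98 with ischemia over sham across 12799 genes, so their sign was turned. The members, lists and tests were chosen with earlier results of these data known.

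Genes that reached 1 TPM in 3 or more libraries were fitted on log2(TPM + 1) by limma 3.58.1 in R 4.3.3 (trend, robust), with Benjamini-Hochberg adjustment over all 13787, and checked on simulated data. Alternatives were other pseudocounts, filters and scalings, no trend, each library left out in turn, and a block for the replicate number. On this scale the changes of low genes are understated. TPM times GENCODE M21 exon length (GRCm38, the assembly of mm10) gave whole reads within 0.001 for 14447 genes (59.7%), 15762283 to 20657040 per library over those genes. For the other 20 members no read number is given. Positions are from GENCODE M21. Exons of 13 members overlap another gene, 6 on the same strand and 8 on the other, among them Irf9, Irf7 and Ifnar2, and reads there may be shared.

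Values per library are given for receptors, Stat2, Irf9, Irf7, the 4 smallest p in each direction and the 3 highest means. Of each other pathway list the 2 genes of smallest p are named, with Jak1, Tyk2, Irf1, Ly6a, B2m, Mpo, Elane and Kit. One gene of this rule is not reported here. Members and markers beyond this rule were picked as examples with their values in view. Kit had 110 ± 32.6 TPM in sham and 93.7 ± 26.7 TPM after ischemia (SD, n = 3 each). Granulocyte-monocyte progenitor and neutrophil maturation markers summed to 25464 to 30638 and 554 to 824 TPM in sham, 24656 to 30360 and 399 to 890 TPM after ischemia.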

Additional observations from a re-analysis of the deposited data

How the results depend on the processing

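In each of the 14 alternatives tried, 0 members passed an adjusted p of 0.05, and the sign of the log2 fold change was kept for each of the 12 members named by rule, apart from Irf7, Mx1 and Oas3 at a mean of at least 5 TPM, where they were not tested. Their sizes moved both with the processing and when 1 library was left out. Oas3 was -0.64 with a pseudocount of 0.1 and -0.14 with a pseudocount of 5. With size factors Bst2 moved from 0.07 to 0.19. Without hindlimb ischemia replicate 3, Irf9 moved from -0.19 to -0.04, Irf7 from -0.13 to -0.01, Oas3 from -0.38 to -0.16 and Eif2ak2 from 0.23 to 0.35. Without sham replicate 2 Ifngr1 moved from 0.18 to 0.07, without hindlimb ischemia replicate 2 Bst2 moved from 0.07 to 0.013, and without sham replicate 3 Eif2ak2 moved to 0.13. At an unadjusted p under 0.05 there were 2 members in the fit reported and 1 with no filter on low values. With quantile normalization there were 5, and with size factors 6. The shares of all genes in the same order were 3.89%, 3.78%, 5.15% and 5.07%. The median of the members moved to 0.013 with quantile normalization and 0.016 with size factors, where that of all genes was -0.011 and 0.015. Leaving out 1 library gave from 0 to 5 such members. It was 0 without sham replicate 1, sham replicate 3, hindlimb ischemia replicate 2 or hindlimb ischemia replicate 3, and 5 without hindlimb ischemia replicate 1, when 19.4% of all genes were. The median of the members ran from -0.15 to 0.019 over these fits, and relative to all genes from -0.067 to 0.079. With the replicate number as a block there were 5 such members, beside 13.7% of all genes, and the smallest adjusted p of a member was 0.141. Deviations of same-numbered libraries correlated with r of 0.39, 0.18 and 0.08, and those of differently numbered ones with r from -0.43 to 0.38. The labels give 2 groups and no batch, so the fit reported used no block. Whether same-numbered libraries share a batch was not tested. Sham replicate 2 correlated best with ischemia replicate 3, at 0.38. The block gave 69 genes past an adjusted p of 0.05, against 0 without it, and the cause was not tested. Depth limits Ifit3 most, with at most 13 reads in any library. Without hindlimb ischemia replicate 1, 33 genes passed an adjusted p of 0.05, and 0 of them were members.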
